A study of Mus musculus with 15 samples.

Results

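Myoepithelial cells form the outer, contractile layer of the mammary duct and alveolus, and their genes were followed here in mouse mammary tumors profiled on arrays. The listed genes numbered 10, of 22180 genes with a transcript cluster of their own. The list held 6 contractile genes (Acta2, Myh11, Mylk, Cnn1, Tagln and Oxtr) and 4 basal genes (Trp63, Itga6, Itgb4 and Lama3), and keratins were left out of it. All 10 had a transcript cluster (the set of probes that stands for a gene) carrying 1 gene symbol, and all 10 passed the filter on low values, as did 14243 genes in all.

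The study measured total RNA of 15 frozen end-burden mammary tumors, 1 array per tumor, in mice that all carried ErbB2KI, the activated Erbb2 knock-in allele that drives tumors in this model. The groups were homozygous floxed Ctnnb1 (fl/fl, called HOM), heterozygous floxed Ctnnb1 (fl/wt, called HET) and wild-type Ctnnb1 (wt/wt, called WT), with 5 tumors each. Ctnnb1 encodes beta-catenin, and its deletion was directed to the mammary epithelium. The promoter that drove deletion, the strain and the age are not given in the labels used here, and the labels do not say that tumors of 1 group are from different mice. P-values therefore measure the spread between these tumors. Values are log2 array values, and a difference of 1 is a doubling. Array medians lay between 5.54 and 5.73.

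Myoepithelial cells share their contractile machinery with smooth muscle. Oxytocin binds its receptor (Oxtr) on these cells during suckling, calcium rises, myosin light chain kinase (Mylk) phosphorylates the light chain of smooth muscle myosin, and the cell shortens to eject milk. The same cells sit on the basement membrane and share with other basal epithelia the transcription factor p63 (Trp63) and the integrin and laminin chains that anchor them. In a tumor, the contractile proteins are also made by pericytes, vascular smooth muscle and activated fibroblasts. In whole-tumor RNA, fewer cells of a type and less RNA per cell cannot be told apart.

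Many contractile genes are bound by serum response factor at a motif called the CArG box. RefSeq promoter sequences (build GRCm38.p6, from 250 bases before to 50 bases after the start site) were found for 4 members, Acta2, Cnn1, Mylk and Oxtr. A full CArG box, searched on both strands, was in 0 of these 4 and in 1.64% of 32544 promoters. With 1 core base other than A or T allowed, Acta2 held 2 such boxes, beginning 84 and 34 bases before the start site, and 8.46% of all promoters held at least 1. The motif CATTCC, which TEAD factors bind, was found on either strand in Acta2 and Mylk, against 14.6% of all promoters. The exact string TATAAA was in none of the 4, against 13.6%. Variants of that string were not searched, and the Acta2 promoter printed below holds TATATAA. A match here is a description of letters, not a site shown to be bound. The promoters of Acta2 (chr19:34255324-34255623, minus strand) and Cnn1 (chr9:22099003-22099302, plus strand) are shown because the levels of these genes moved most closely together with that of Tagln, with capitals marking the CArG boxes that have 1 such core base.
Acta2: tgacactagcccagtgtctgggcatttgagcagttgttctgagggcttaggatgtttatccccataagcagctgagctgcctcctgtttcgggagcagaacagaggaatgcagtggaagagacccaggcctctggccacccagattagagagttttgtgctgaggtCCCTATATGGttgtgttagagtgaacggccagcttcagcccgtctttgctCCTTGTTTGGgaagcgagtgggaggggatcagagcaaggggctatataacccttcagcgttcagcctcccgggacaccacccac
Cnn1: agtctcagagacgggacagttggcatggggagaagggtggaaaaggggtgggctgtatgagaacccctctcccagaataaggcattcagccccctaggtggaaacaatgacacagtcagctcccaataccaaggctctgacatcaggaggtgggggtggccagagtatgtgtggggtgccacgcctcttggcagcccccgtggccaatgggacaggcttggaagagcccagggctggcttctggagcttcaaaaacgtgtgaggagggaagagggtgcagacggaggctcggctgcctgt

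Ctnnb1 itself was looked at first as a check of the labels. It was 11.48 ± 0.33 in HOM, 11.50 ± 0.19 in HET and 11.84 ± 0.39 in WT (SD, n = 5 each). The tumor labelled HOM 5 had a level of 12.01, inside the 11.71 to 12.10 spanned by WT 1 to WT 4. The tumor labelled WT 5 had 11.21, inside the 11.15 to 11.58 spanned by HOM 1 to HOM 4. The position of the probes with respect to the floxed exons was not available, so the level checks deletion only in part. Some HET tumors also stood apart in their marker levels. HET 1 had a luminal marker mean of 8.10, against 9.27 to 10.85 in the other HET tumors. HET 3 had a skeletal muscle marker mean of 11.21, against 5.97 to 6.91 in the other HET tumors.

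The 3 genes whose products form and steady the actin filaments of contractile cells varied widely from tumor to tumor. Acta2 encodes smooth muscle alpha-actin. It was 11.55, 10.81, 10.86, 11.50 and 12.25 in HOM tumors 1 to 5, 9.40, 11.53, 11.27, 12.66 and 9.61 in HET, and 9.64, 11.43, 10.67, 11.94 and 11.27 in WT. HET 4 and the tumor labelled HOM 5 were the highest, HET 1, HET 5 and WT 1 the lowest, and the genotypes overlapped. Cnn1 encodes calponin 1, which binds actin and restrains myosin. It was 7.27, 6.52, 5.77, 7.14 and 9.24 in HOM, 4.70, 8.06, 6.88, 10.94 and 4.72 in HET, and 5.57, 7.26, 5.49, 7.46 and 7.24 in WT. HET 4 and HOM 5 stood highest, and 4 tumors (HET 1, HET 5, WT 1 and WT 3) fell short of their own array medians of 5.54 to 5.58, where signal over background was not analysed. The full span of Cnn1, 75.3-fold between HET 1 and HET 4, is therefore uncertain at its lower end. Tagln encodes transgelin, an actin-binding protein of smooth muscle. It was 9.21, 8.64, 8.36, 9.44 and 10.94 in HOM, 7.44, 9.23, 8.98, 10.97 and 6.91 in HET, and 7.61, 9.06, 8.74, 9.06 and 9.29 in WT. HET 4 and the tumor labelled HOM 5 were again highest and nearly level, while HET 5, HET 1 and WT 1 were lowest.

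**Figure D1:**
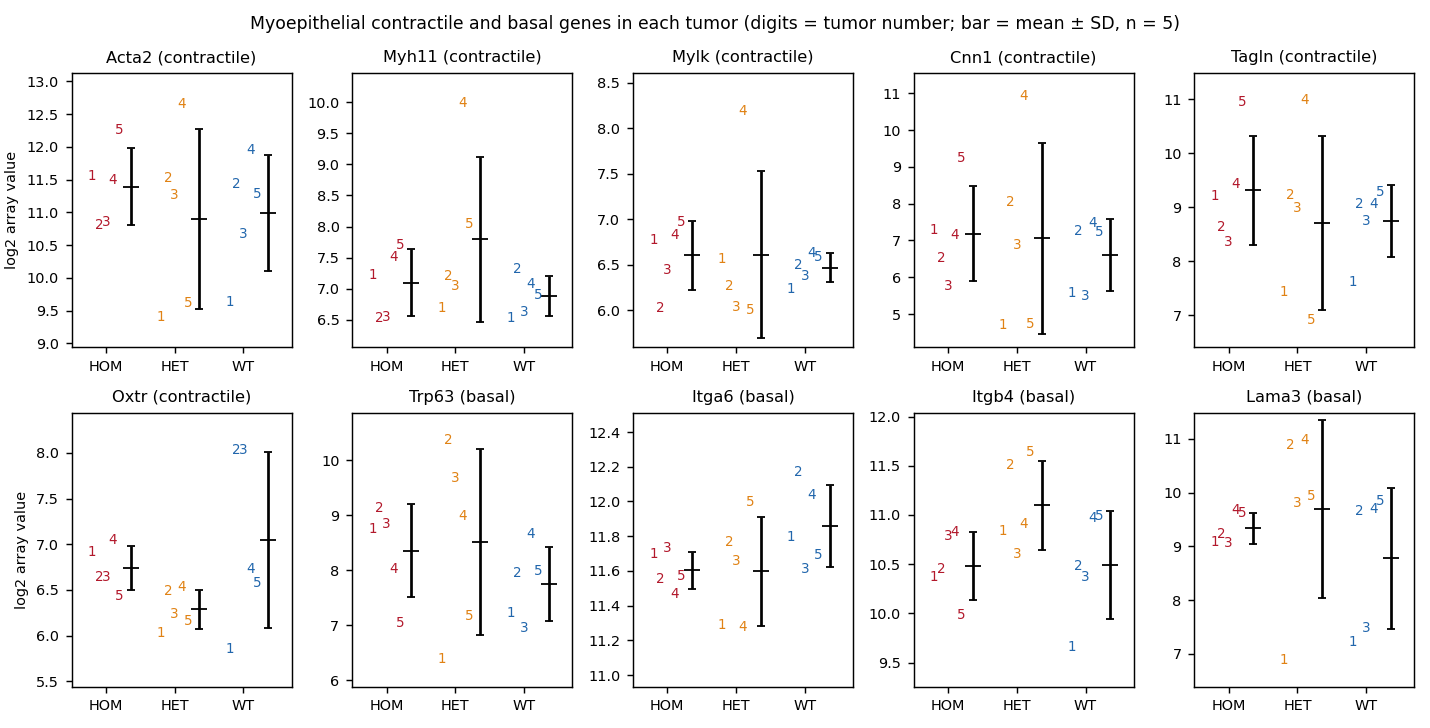
Log2 array values of the 10 genes (vertical axes, each with its own scale) in HOM, HET and WT tumors. Digits give each tumor's number and bars the mean ± SD of 5 tumors. HET 4 is highest for Acta2, Myh11, Mylk, Cnn1 and Tagln, and the genotypes overlap for every gene.

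The genes for the myosin heavy chain and its activating kinase were both highest in HET 4. Myh11 encodes the smooth muscle myosin heavy chain, the motor of contraction. It was 7.22, 6.53, 6.54, 7.51 and 7.70 in HOM, 6.69, 7.20, 7.05, 9.99 and 8.04 in HET, and 6.53, 7.31, 6.62, 7.08 and 6.90 in WT. HET 5, which was among the lowest for Acta2, Cnn1 and Tagln, was the next highest for Myh11 after HET 4. Mylk was 6.77, 6.02, 6.44, 6.82 and 6.97 in HOM, 6.56, 6.26, 6.03, 8.19 and 6.0 in HET, and 6.23, 6.50, 6.38, 6.62 and 6.59 in WT. Outside HET 4 its values stayed within 1 log2 unit of each other in all groups.

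Oxtr went its own way. It was 6.92, 6.64, 6.64, 7.05 and 6.44 in HOM, 6.03, 6.49, 6.23, 6.53 and 6.16 in HET, and 5.85, 8.03, 8.03, 6.73 and 6.57 in WT. WT 2 and WT 3 stood above all others, while HET 4, the tumor with the highest Acta2 and Cnn1, was unremarkable at 6.53. Of the HOM tumors, 4 of 5 lay above every HET tumor, and HOM 5 lay within the HET range.

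Among the basal genes, Trp63 and Lama3 varied strongly and the integrin chains much less. Trp63, the master regulator of basal epithelial identity, was 8.76, 9.13, 8.85, 8.03 and 7.04 in HOM, 6.38, 10.37, 9.67, 8.98 and 7.16 in HET, and 7.23, 7.96, 6.94, 8.66 and 7.98 in WT. HET 2 and HET 3 were highest and HET 1 lowest, and the tumor labelled HOM 5, high for Cnn1 and Tagln, was the lowest of its group. The cluster does not separate the isoforms of p63. Lama3 encodes the alpha chain of laminin-332, the basement membrane ligand of basal cells. It was 9.08, 9.23, 9.06, 9.68 and 9.62 in HOM, 6.89, 10.89, 9.80, 10.99 and 9.94 in HET, and 7.21, 9.66, 7.48, 9.70 and 9.84 in WT. HET 1, WT 1 and WT 3 were low, and HET 4 and HET 2 high.

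Itga6 and Itgb4 encode the alpha-6 and beta-4 chains that together form the laminin receptor of hemidesmosomes. Itgb4 was 10.36, 10.46, 10.78, 10.82 and 9.98 in HOM, 10.84, 11.51, 10.60, 10.91 and 11.64 in HET, and 9.65, 10.48, 10.37, 10.97 and 10.99 in WT. HET 5 and HET 2 were highest, and 3 of 5 HOM tumors lay below every HET tumor. A further cluster shared by Itgb4 and another symbol was left out. It lay between 5.08 and 6.12 and correlated with the one used at r = 0.64 over the 15 tumors. Itga6 ran from 11.28 in HET 4 to 12.17 in WT 2, a span of only 1.85-fold. Its group means were 11.60 ± 0.11 in HOM, 11.60 ± 0.31 in HET and 11.86 ± 0.24 in WT (SD, n = 5 each).

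The spread over all 15 tumors set the members apart from each other. The SD was 1.66 for Cnn1, larger than that of 99.0% of the 14243 tested genes, and 1.21 for Lama3, 1.12 for Trp63 and 1.11 for Tagln. For Itga6 it was 0.25, larger than that of 35.8% of tested genes, whose median SD was 0.31. HET tumors were the most diverse for 8 of these genes by SD, as the values above show, with an SD of 2.60 for Cnn1 in HET, against 1.29 in HOM and 0.99 in WT, and 1.69 for Trp63, against 0.68 in WT. The exceptions were Oxtr, at 0.21 in HET and 0.96 in WT, and Itgb4, at 0.45 in HET and 0.55 in WT. How often HET had the largest SD over all tested genes was not computed, so the count is not shown to be particular to the members. The luminal marker mean also had its largest SD in HET (1.14, against 0.34 in HOM and 0.40 in WT). The mean of the laminin-332 and hemidesmosome partners taken up below had its largest SD in WT (0.61, against 0.22 in HET).

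Acta2, Cnn1 and Tagln moved together across tumors, with Mylk and Myh11 less closely tied to them. Pearson's r and Spearman's rho were computed over 15 tumors for all 45 pairs of members, with permutation p adjusted over the 45. Of the 15 contractile pairs, 7 passed by r, all positive, and each of the 7 lay among Acta2, Myh11, Mylk, Cnn1 and Tagln. By rho, 5 of the 15 passed. Acta2 and Tagln had r = 0.94 and rho = 0.89 (permutation p = 2e-05 and 5e-05, adjusted 0.0003 and 0.00105), and r = 0.91 without HET 1 and HET 5, the 2 tumors farthest from the Acta2 median. Acta2 and Cnn1 had r = 0.92 and rho = 0.97 (permutation p = 1e-05 each, the smallest the resamples can give, adjusted 0.00022 and 0.00045), and r = 0.89 without the same tumors. Cnn1 and Tagln had r = 0.94 and rho = 0.88 (adjusted permutation p = 0.00022 and 0.00105), and r = 0.92 without HET 1 and HET 4. With genotype means subtracted these 3 values of r were 0.94, 0.93 and 0.96.

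**Figure D2:**
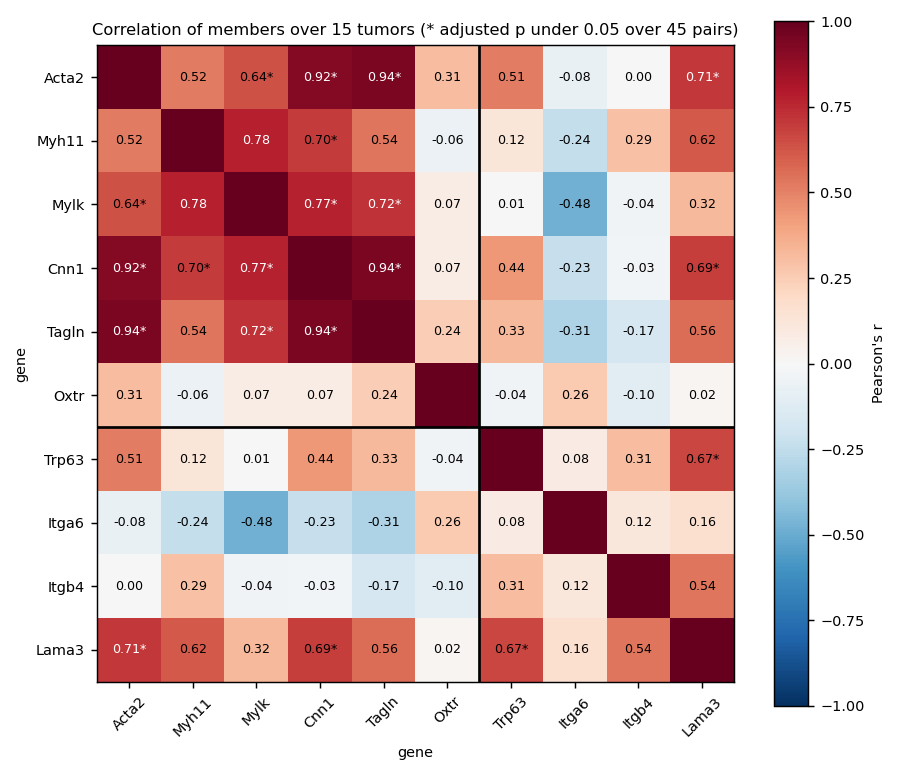
Pearson's r between each pair of the 10 genes over 15 tumors, with contractile and basal genes separated by black lines. Stars mark the 10 pairs with an adjusted permutation p under 0.05, of which 7 lie among the contractile genes.

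Mylk passed by r with Acta2, Cnn1 and Tagln (r = 0.64, 0.77 and 0.72, adjusted permutation p = 0.0318, 0.0171 and 0.0128). By rho it passed with Acta2 and Tagln (0.73 and 0.75, adjusted 0.022 and 0.0192) and not with Cnn1 (0.63, adjusted 0.0739). Without the 2 tumors farthest from the median, r was 0.72 with Acta2 (HET 1 and HET 5 left out), and 0.41 with Cnn1 and 0.53 with Tagln (HET 4 and HET 5 left out). Myh11 and Mylk had r = 0.78 and rho = 0.50 (adjusted permutation p = 0.0554 and 0.181), and r = 0.65 without HET 4 and HET 5. Myh11 and Cnn1 had r = 0.70 and rho = 0.55 (adjusted permutation p = 0.0318 and 0.145), and r = 0.83 without HET 4 and HET 5. With Acta2 and Tagln, Myh11 did not pass by r (0.52 and 0.54, adjusted permutation p = 0.127 each). It did not pass by rho either (0.59 and 0.56, adjusted 0.122 and 0.133). Leaving out the 2 farthest tumors gave r = 0.77 with Acta2 (HET 1 and HET 5) and 0.82 with Tagln (HET 4 and HET 5). With genotype means subtracted, all 10 pairs among Acta2, Myh11, Mylk, Cnn1 and Tagln passed by r, against 7 without that step. Oxtr passed in 0 of its 9 pairs by r or by rho, with r from -0.10 to 0.31. An r near 0 over 15 tumors does not show that genes are unrelated. No background share of passing gene pairs was computed, so these counts are not shown to be particular to the members.

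Of the 6 pairs of basal genes only Trp63 with Lama3 passed by r (r = 0.67, rho = 0.50, adjusted permutation p = 0.0318 and 0.181), and r was 0.46 without HET 1 and HET 2. By rho only Itgb4 with Lama3 passed (rho = 0.69, adjusted permutation p = 0.043, r = 0.54). Of the 24 pairs of a contractile with a basal gene, 2 passed by r and 0 by rho. These were Lama3 with Acta2 (r = 0.71, adjusted permutation p = 0.0265) and with Cnn1 (r = 0.69, adjusted 0.0296). Without the 2 tumors farthest from the median, r was 0.81 for Acta2 (HET 1 and HET 5 left out) and 0.52 for Cnn1 (HET 1 and HET 4 left out). Both passed with genotype means subtracted (adjusted permutation p = 0.00551 and 0.0214), and neither passed without HET 1 and HET 3 (adjusted 0.106 and 0.0918). Trp63 had r of 0.51 with Acta2, 0.44 with Cnn1 and 0.01 with Mylk, none of which passed.

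**Figure D3:**
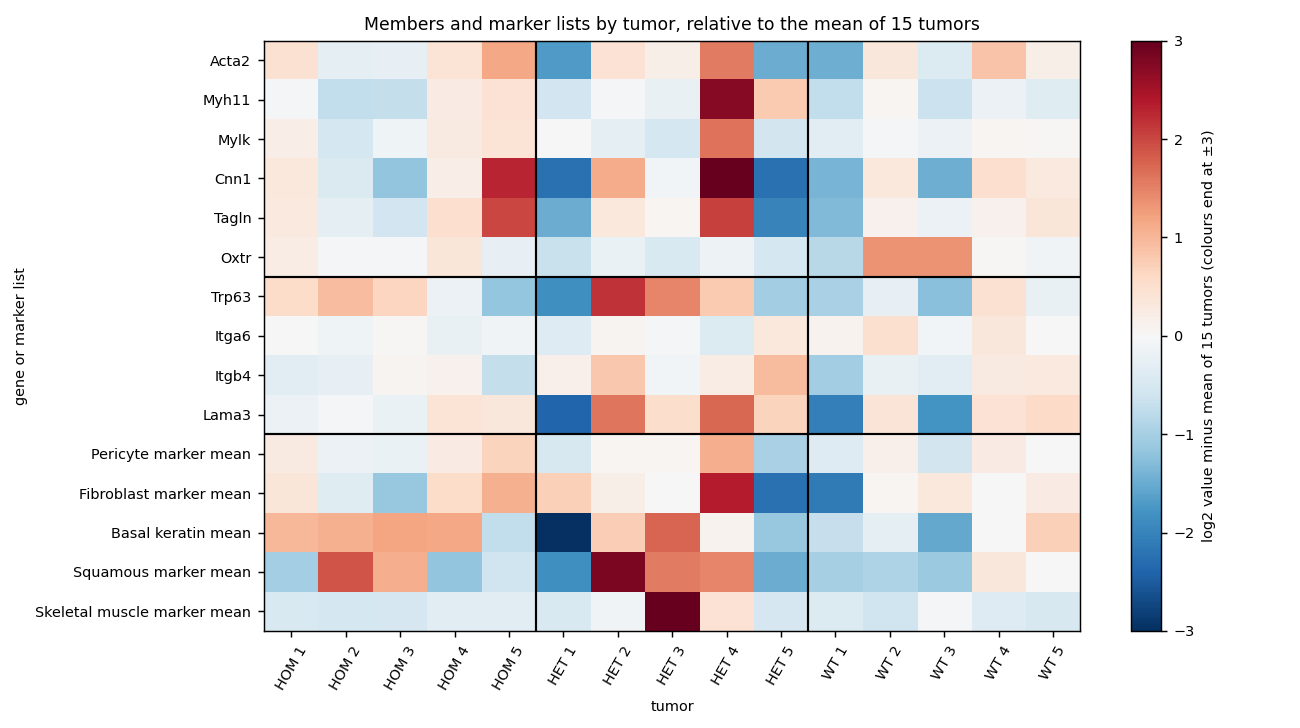
Each gene and each marker list mean (rows) in each tumor (columns), as the log2 value minus the mean over 15 tumors. HET 4 and HOM 5 stand out for Cnn1 and Tagln together with the pericyte and fibroblast rows. HET 2 is highest for Trp63 and for the squamous row, and HET 3 is highest for the keratin row.

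Because contractile genes are made by several cell types, each member was set against the tumor means of 7 marker lists, 70 relations adjusted together. Acta2, Cnn1, Tagln and Mylk each passed by r with vascular smooth muscle and pericyte markers, with fibroblast markers and with endothelial markers. The pericyte list (11 of 12 members tested, none of them a gene of this report) had means of 8.17 to 9.04 in HOM, 7.41 to 9.47 in HET and 7.83 to 8.63 in WT. HET 4 was highest and HOM 5 next, as for Cnn1 and Tagln, and HET 5 was lowest. Cnn1 had r = 0.95 and rho = 0.89 with it (adjusted permutation p = 0.00035 and 0.00105), and r = 0.92 without HET 4 and HET 5. Tagln had r = 0.93 and Acta2 r = 0.91 (adjusted permutation p = 0.00035 each), with rho = 0.86 and 0.94 and r = 0.86 and 0.88 without those tumors. Mylk had r = 0.79 and rho = 0.76 (adjusted permutation p = 0.004 and 0.0106), and r = 0.57 without those tumors. Rgs5, a defining pericyte gene, was 10.52 to 11.51 in HOM, 8.72 to 11.96 in HET and 9.96 to 10.92 in WT, with its extremes in HET 5 and HET 4. The part that pericytes or vascular smooth muscle play in the contractile signal was not tested.

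The fibroblast marker mean (14 of 14 members tested) was 8.14 to 10.34 in HOM, 7.05 to 11.63 in HET and 7.17 to 9.60 in WT. Tagln had r = 0.80 and rho = 0.69 with it (adjusted permutation p = 0.0056 and 0.0435), and r = 0.66 without WT 1 and HET 5. For Cnn1, r was 0.73 and rho 0.47 (adjusted permutation p = 0.0142 and 0.302), and for Acta2, r was 0.70 and rho 0.53 (adjusted 0.0188 and 0.189), so these passed by r only. Without WT 1 and HET 5, r was 0.68 for Cnn1 and fell to 0.45 for Acta2. For Mylk, r was 0.76 and rho 0.83 (adjusted 0.0056 and 0.00268), and r was 0.84 without WT 1 and HET 5. HET 1, the tumor with the lowest Acta2 and Cnn1, had the third highest fibroblast mean of the 15. Without HET 1 and HET 3, r with the fibroblast mean was 0.95 for Tagln, 0.92 for Acta2, 0.87 for Cnn1 and 0.81 for Mylk. Endothelial markers (10 of 10 tested) had r = 0.84 with Mylk, 0.78 with Cnn1 and 0.76 with Tagln (adjusted permutation p = 0.0014, 0.0056 and 0.00859). For Acta2, r was 0.64 (adjusted 0.0459). These were 0.67, 0.52, 0.53 and 0.39 without HET 4 and HET 5, and 0.87, 0.96, 0.94 and 0.91 without HET 1 and HET 3. In the same order, rho was 0.82, 0.61, 0.69 and 0.64 (adjusted permutation p = 0.0032, 0.0889, 0.0437 and 0.0747). Cnn1 and Acta2 thus passed with this list by r only. The part of fibroblasts or endothelial cells in the contractile signal was not tested, nor was any difference between the marker lists. The endothelial marker mean was 7.24 to 9.22 in HOM, 7.08 to 9.88 in HET and 7.42 to 8.45 in WT. Oxtr and Myh11 passed with none of the 7 lists. For Myh11 and the pericyte mean, r was 0.60 (adjusted permutation p = 0.091), and 0.90 without HET 4 and HET 5.

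Of the 4 basal genes, only Trp63 passed with any list. The basal keratin mean (Krt14, Krt15 and Krt17 tested, while Krt5 had no cluster of its own) was 9.22 to 11.13 in HOM, 6.65 to 11.70 in HET and 8.43 to 10.67 in WT. Trp63 had r = 0.81 and rho = 0.84 with it (permutation p = 0.0002 each, adjusted 0.00233 and 0.00268), and r = 0.73 without HET 1 and HET 3. Squamous differentiation and skin markers (14 of 15 tested) had means of 6.53 to 9.60 in HOM, 5.88 to 10.53 in HET and 6.61 to 8.05 in WT. Trp63 had r = 0.88 and rho = 0.84 with that list (adjusted permutation p = 0.00035 and 0.00268), and r = 0.83 without HET 2 and HOM 2. For Tagln, r was 0.37 with the keratins and 0.35 with the squamous list, and neither passed (adjusted permutation p = 0.40 and 0.442). No test of the difference between these correlations was made.

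**Figure D4:**
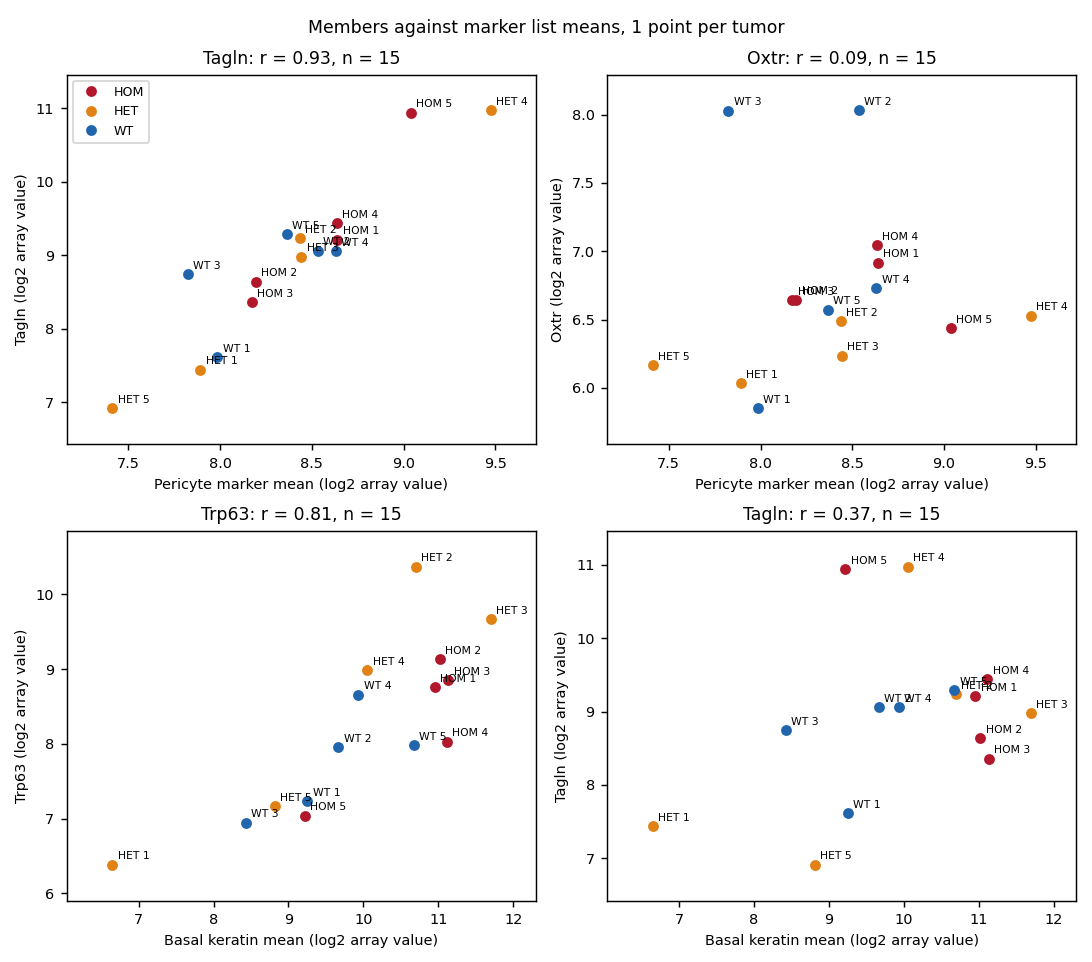
Tagln, Oxtr and Trp63 (vertical axes, log2 array value) against the pericyte or basal keratin marker mean (horizontal axes, log2 array value), 1 point per tumor, coloured by genotype. Tagln rises with the pericyte mean (r = 0.93) and Trp63 with the keratin mean (r = 0.81), while Oxtr shows r = 0.09 with the pericyte mean and Tagln r = 0.37 with the keratin mean.

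Skeletal muscle and luminal markers did not pass with any member. The skeletal muscle mean (7 of 13 tested) was 5.95 to 6.14 in HOM, 5.97 to 11.21 in HET and 5.89 to 6.41 in WT. HET 3 carried the highest of these values, and its Acta2, Cnn1 and Tagln (11.27, 6.88 and 8.98) lay inside the WT range. The luminal mean (12 of 12 tested) was 10.19 to 11.02 in HOM, 8.10 to 10.85 in HET and 9.91 to 10.99 in WT.

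The comparison of HET with WT asked whether these genes differ in tumors with 1 floxed Ctnnb1 allele. None of the 10 passed the limma test (adjusted p from 0.36 to 0.984), where 0.014% of all tested genes were called. At an unadjusted p under 0.05 there were 2 members, Oxtr and Itgb4, against 13.4% of all tested genes. Oxtr was 6.29 ± 0.21 in HET and 7.04 ± 0.96 in WT, a log2 difference of -0.75 (95% interval -1.50 to -0.01, adjusted p = 0.369, limma). Itgb4 was 11.10 ± 0.45 in HET and 10.49 ± 0.55 in WT, a difference of 0.61 (0.02 to 1.19, adjusted p = 0.36, limma). By the exact permutation test over 252 assignments, whose smallest p is 0.00794, these had unadjusted p of 0.159 and 0.103, and 0 of the 10 members were under 0.05. Contractile members had 3 higher and 3 lower means in HET, with a median difference of 0.05. Basal members had 3 higher and 1 lower, with a median of 0.68. Over all tested genes the median was -0.03, and the mean was higher in HET for 45.5% and lower for 54.5%. Without the tumors labelled HOM 5 and WT 5, the difference was -0.87 for Oxtr and 0.73 for Itgb4 (adjusted p = 0.329 and 0.275, limma).

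The comparison of HOM with WT asked the same of tumors with 2 floxed alleles. None of the 10 members passed (adjusted p rounds to 1 for each, limma), where 0% of all tested genes were called, and at an unadjusted p under 0.05 there were 0 members and 1.7% of genes. The members' exact permutation p ran from 0.0635 for Itga6 upward. Means were higher in HOM for 5 of 6 contractile and 2 of 4 basal members, with medians of 0.31 and 0.27. Over all tested genes the median was -0.01, and the mean was higher in HOM for 47.2% and lower for 52.8%. Cnn1 averaged 7.19 ± 1.29 in HOM and 6.60 ± 0.99 in WT, and the 95% interval of the difference, 0.59, ran from -1.63 to 2.80. That limma interval uses a spread shared by all 3 genotypes, and the SD of Cnn1 was 2.60 in HET. Fitted on HOM and WT alone, the limma standard error was 0.641 instead of 1.03. Itga6, the member with the least spread between tumors, differed by -0.26 (-0.58 to 0.07). Without the tumors labelled HOM 5 and WT 5, whose Ctnnb1 levels each lay among those of the other group, the Cnn1 difference was 0.23. In that setting 0 members passed in any of the 3 comparisons.

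HOM and HET differed in 0 members as well (adjusted p from 0.61 to 0.997, limma, with 0% of all tested genes called). At an unadjusted p under 0.05 there was 1 member, Itgb4, against 7.93% of genes. Itgb4 was 10.48 ± 0.34 in HOM and 11.10 ± 0.45 in HET, a difference of -0.62 (95% interval -1.20 to -0.03, exact permutation p = 0.0397, adjusted p = 0.61 by limma). Oxtr was 6.74 ± 0.24 in HOM and 6.29 ± 0.21 in HET, a difference of 0.45 (-0.30 to 1.19, exact permutation p = 0.0238, adjusted p = 0.752 by limma). The limma interval rests on a spread shared by all 3 genotypes, and the SD of Oxtr was 0.96 in WT. Fitted on HOM and HET alone, the limma standard error was 0.149 instead of 0.347, with unadjusted p = 0.013 and adjusted p = 0.62. Groups of HOM and HET tumors overlapped for all 10 members, as they did in the other comparisons, where 1.58% (HET against WT), 0.281% (HOM against WT) and 1.03% (HOM against HET) of all tested genes did not overlap. Over all tested genes the mean was higher in HOM than in HET for 52.4% and lower for 47.6%, and of the members for 5 and 5. Without HOM 5, the Oxtr and Itgb4 differences were 0.52 and -0.49 (adjusted p = 0.665 and 0.59, limma, with WT 5 left out too). These 3 comparisons share tumors, so their values are not independent.

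**Figure D5:**
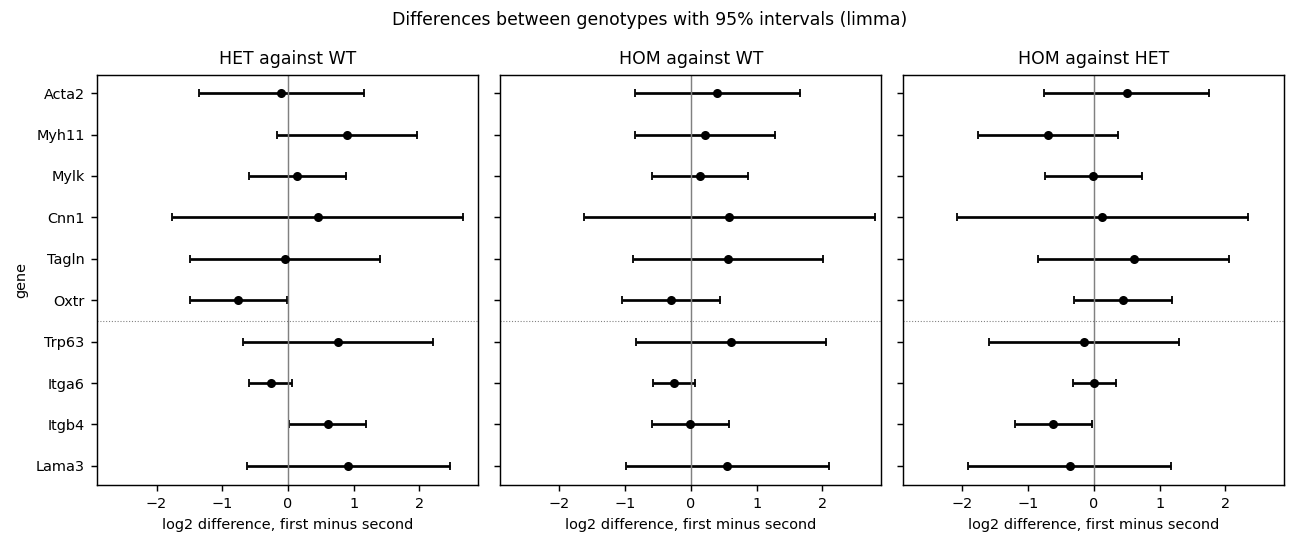
Log2 difference of each gene between genotypes (horizontal axis, first minus second group) with its 95% interval from limma, contractile genes above and basal genes below the dotted line. Intervals are widest for Cnn1 and narrowest for Itga6, and those of Oxtr (HET against WT) and Itgb4 (HET against WT, HOM against HET) end just short of 0.

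Among other genes of the same machinery, 0 passed the limma threshold in any comparison. Of 20 other smooth muscle contractile genes, all tested, 16 had a higher mean in HET than in WT (median difference 0.19), 16 a higher mean in HOM than in WT (0.10), and 5 a higher mean in HOM than in HET (-0.14). Over all tested genes the shares with a higher mean were 45.5%, 47.2% and 52.4% in the same order. Counts of direction within a list were not tested here or below. Synpo2, which encodes an actin-bundling protein, averaged 6.21 ± 0.50 in HET and 5.59 ± 0.19 in WT, with adjusted p = 0.258. Desmin (Des), an intermediate filament protein also made by skeletal muscle, averaged 8.74 ± 2.17 in HET and 7.03 ± 0.57 in WT, with adjusted p = 0.364. The part of the skeletal muscle markers that were high in HET 3 in this value was not tested. Of 21 genes from the oxytocin receptor to myosin phosphorylation, 18 were tested, and 12 had a lower mean in HET than in WT, 11 in HOM than in WT and 10 in HOM than in HET. The shares of all tested genes with a lower mean were 54.5%, 52.8% and 47.6%. The calcium sensor Stim1 was 7.84 ± 0.16 in HOM, 7.85 ± 0.25 in HET and 8.34 ± 0.20 in WT (adjusted p = 0.224 between HET and WT, and about 1 between HOM and WT). Gna11, a G protein alpha subunit that couples such receptors to calcium release, averaged 10.55 ± 0.40 in HET and 10.91 ± 0.13 in WT, with adjusted p = 0.36.

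Regulators and anchors did not pass either. Their counts of higher means stand beside 45.5% (HET against WT), 47.2% (HOM against WT) and 52.4% (HOM against HET) of all tested genes. Of 8 serum response factor and myocardin family regulators, 6 had a higher mean in HET than in WT, 3 in HOM than in WT and 2 in HOM than in HET. Klf4, a factor that represses smooth muscle genes, was 8.13 ± 0.70 in HOM, 9.14 ± 0.75 in HET and 7.89 ± 0.55 in WT (adjusted p = 0.242 for HET against WT, 0.587 for HOM against HET). Of 13 laminin-332 and hemidesmosome partners, 12 were tested, with 8 higher in HET than in WT, 7 in HOM than in WT and 4 in HOM than in HET. Itga2, a collagen-binding integrin chain, was 9.77 ± 0.34 in HOM, 10.72 ± 0.73 in HET and 8.99 ± 1.32 in WT (adjusted p = 0.231 for HET against WT). Lama5, the alpha chain of other laminins, was lower in mean, at 8.44 ± 0.75 in HET and 9.36 ± 0.83 in WT (adjusted p = 0.342). Lamb3, the beta chain that assembles with the product of Lama3, was 9.92 ± 0.20 in HOM, 10.58 ± 0.46 in HET and 9.86 ± 0.86 in WT (adjusted p = 0.377 for HET against WT). Of 20 basal transcription factor and surface genes, 19 were tested, with 13 higher in HET than in WT, 15 in HOM than in WT and 5 in HOM than in HET. Procr, a surface receptor of mammary stem-like basal cells, was 7.64 ± 0.43 in HOM, 8.74 ± 1.08 in HET and 7.48 ± 0.35 in WT (adjusted p = 0.245 for HET against WT). Ngfr, the low-affinity neurotrophin receptor, averaged 6.94 ± 0.22 in HET and 6.37 ± 0.41 in WT, with adjusted p = 0.255. Snai2, a factor of the basal lineage, averaged 10.11 ± 1.68 in HET and 8.58 ± 1.0 in WT, with adjusted p = 0.349. Krt14 was 12.17 ± 0.70 in HOM, 11.21 ± 2.54 in HET and 10.54 ± 1.66 in WT, and did not pass.

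For each member the genes most like it across the 15 tumors were found by Pearson's r among tested genes outside the member list. Predicted gene models and RIKEN clones were left out. The genes found are given as a description with no p, since they are the highest of many. Those nearest to Acta2 were Col15a1 (r = 0.95), a basement membrane collagen, Myl9 (0.94), the smooth muscle myosin light chain, and Col8a1 (0.93). Cnn1 was nearest to Actg2 (0.94), smooth muscle gamma-actin, and Fmod (0.93), a matrix proteoglycan, and Tagln to Fmod (0.96) and Cpxm2 (0.94). Mylk was nearest to Tbx18 (0.93), a transcription factor of pericytes and vascular smooth muscle, with Shc2 and Clip3 practically level (0.93 each). Mylk was 8.19 in HET 4 and at most 6.97 in the other tumors, and its nearest genes were not sought without HET 4. Myh11 was nearest to Kcp (0.93), and Oxtr to Pbxip1 (0.85). Trp63 was nearest to Jag2 (0.95), a Notch ligand, and Lama3 to Mir3097 (0.90), ahead of Cd44 (0.86), a hyaluronan receptor of basal cells. For Itga6 the nearest was Dctd (0.85) and for Itgb4 Ociad2 (0.83).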

How the data were processed

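Log2 array values for 41345 transcript clusters in 15 tumors were used as the authors deposited them. Per the submitters' processing notes, the tools were Transcriptome Analysis Console and Affymetrix Expression Console. How background was corrected and arrays were normalized is not given in the sources used here. That the deposited values are log2 was read from their range. Per the labels' protocols, 100 ng of RNA was labelled per tumor. No detection calls were used, and the number of arrays limits precision.

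Of 23521 clusters with 1 symbol in the platform annotation, the brightest per gene was kept (22180 genes). A gene was tested when above its array's median on at least 5 arrays (14243). A single limma model (version 3.58.1, run in R 4.3.3) of all 3 genotypes gave two-sided moderated tests, and its p-values were adjusted by Benjamini-Hochberg over all tested genes (threshold 0.05). Exact permutation tests compared single members between genotypes. Correlations used 100000 permutations with NumPy 2.4.6. Simulated data were used to check the limma step. The symbol of a cluster was checked by Entrez ID against RefSeq (23328 clusters matched, 0 symbols changed).

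Genes were named by a rule: the 10 members, Ctnnb1 and Krt14, genes among the 3 with the smallest p of each list in a comparison, taken in order of p for HET against WT, and up to 3 genes nearest to each member by r. Rgs5 was named as a defining pericyte marker, and the shared Itgb4 cluster was added after values were seen. The members, lists, tests and settings were chosen with earlier results of these data known. Alternatives changed the filter, normalization, moderation, array weights or threshold, added a marker mean as covariate, or left out tumors.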

Additional observations from a re-analysis of the deposited data

Results flagged for a closer look

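Within each genotype, each member's highest and lowest tumor was compared with the others by the ratio of its gap to the group's range (critical value 0.71 for 5 tumors). Of 30 groups, 2 were past it, and chance flags about 5% of groups. Mylk was 8.19 in HET 4, against 6.0 to 6.56 in the other HET tumors. The pericyte and fibroblast marker means of that tumor, 9.47 and 11.63, were the highest of all 15, and their part in the Mylk value was not tested. Lama3 was 6.89 in HET 1, against 9.80 to 10.99 in the other HET tumors. The same tumor had the lowest basal keratin mean of all 15, 6.65, and the lowest luminal marker mean, 8.10, and their part in the Lama3 value was not tested.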

How the results depend on the processing

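In all 3 comparisons 0 members passed the limma test under every setting run, the smallest adjusted p being 0.20, and 17 of 30 member differences kept their direction throughout. The filter at the 75th percentile tested only 6 of the 10 members. Calls over all genes in HET against WT, 2 as reported, were 0 with that filter and with array weights, 1 with renewed quantile normalization and with only the genotypes compared, 21 with the skeletal muscle covariate, 10 without HET 1 and HET 3, and 1 to 48 with 1 tumor left out (48 without HET 3, 18 without HET 5). In HOM against WT they were 4, instead of 0, without WT 5 and HOM 5. In HOM against HET they were 6 without WT 5 and HOM 5, 1 with the skeletal muscle covariate, 1 without HET 1 and HET 3, and 0 to 3 with 1 tumor left out (3 without HET 5, 1 without HET 3), instead of 0. Of the 45 pairs, 13 passed with genotype means subtracted and 7 without HET 1 and HET 3, instead of 10.

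Directions turned for 13 member differences, none of them past the threshold, and the cause was not tested. For HET against WT, Acta2 was 0.27 without HET 1 and HET 3 (-0.54 to 0.28 with 1 tumor left out), Mylk -0.0311 with the fibroblast covariate (-0.25 to 0.30), Cnn1 -0.0652 with the same (-0.52 to 1.04), and Tagln 0.089 without WT 5 and HOM 5 and 0.29 without HET 1 and HET 3 (-0.61 to 0.40). For HOM against WT with the pericyte covariate, Acta2 was -0.0604, Myh11 -0.0894, Mylk -0.0944, Cnn1 -0.27 and Itgb4 0.0248. Itgb4 was also 0.00517 with quantile normalization, 0.00364 with the fibroblast covariate and 0.24 without WT 5 and HOM 5 (-0.22 to 0.12). For HOM against HET, Mylk was 0.0895 with array weights and 0.0319 with the fibroblast covariate (-0.16 to 0.39). Cnn1 was -0.31 with array weights, -0.52 with the pericyte covariate, -0.38 without WT 5 and HOM 5 and -0.71 without HET 1 and HET 3 (-0.46 to 1.10). Trp63 was 0.26 with the skeletal muscle covariate and 0.18 without WT 5 and HOM 5 (-0.69 to 0.31). Itga6 was -0.0126 with median centring, -0.0341 with array weights, -0.00616 with the fibroblast covariate and -0.0772 without HET 1 and HET 3 (-0.0744 to 0.11). No paired analysis was possible because the labels pair no tumors and the replicate numbers only name them in accession order.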

Other observations

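Pan-leukocyte markers (8 of 8 tested), a list of immune cell genes, had means of 8.51 to 9.90 in HOM, 8.77 to 10.32 in HET and 7.94 to 9.55 in WT. HET 1, with the lowest Acta2, Cnn1, Trp63 and Lama3, had the highest leukocyte mean, and HET 4, with the highest Acta2, Cnn1 and Lama3, the next highest at 10.20. Of the 8 leukocyte genes, 8 had a higher mean in HET than in WT and 8 in HOM than in WT, against 45.5% and 47.2% of all tested genes. In these comparisons 0 passed (smallest adjusted p = 0.36, HET against WT, limma). Dsc3, a desmosomal cadherin of basal and squamous epithelium, was 5.92 ± 1.18 in HOM, 7.94 ± 2.13 in HET and 5.20 ± 0.23 in WT, and did not pass (adjusted p = 0.226 for HET against WT).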
